A study of Mus with 21 samples.

Results

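The measurement described here is the interaction of alkaline pH and growth factor in mouse skin wounds on Day 4, that is, the difference between hydrogels of pH 8.4 and pH 7.4 with acidic fibroblast growth factor (aFGF, the product of Fgf1) minus the same difference with basic fibroblast growth factor (bFGF, the product of Fgf2). Its members were the 12 RNA-seq libraries of the groups 7.4/aFGF, 8.4/aFGF, 7.4/bFGF and 8.4/bFGF, 3 in each, of the 21 libraries of the series, and all 18806 genes of the count tables, of which 15502 passed the filter on low counts. All wounds were full-thickness splinted wounds of 8 mm on the backs of wild-type female C57BL/6 mice aged 8 weeks, covered with a GelMA (methacrylated gelatin) hydrogel that had been brought to its pH before use and carried aFGF or bFGF at the same concentration. The study asked whether growth factors with different isoelectric points act differently at different wound pH. None of the 12 libraries came from a hydrogel without a growth factor, so the effect of pH alone and the effect of each factor alone cannot be told apart from their combination, and the 3 control libraries, of wounds left without hydrogel, are printed only as a background range. The labels call the libraries biological replicates, so p-values measure the spread between these libraries.

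Fibroblast growth factors bind tyrosine kinase receptors (FGFR) together with heparan sulfate and activate the RAS and ERK cascade, which induces its own inhibitors of the Sprouty, Spred and Dusp families. In healing skin these factors are known to act on fibroblasts, endothelial cells and keratinocytes, while neutrophils and then macrophages fill the wound bed. Cells sense and regulate protons through G protein-coupled receptors, ion channels, bicarbonate and proton exchangers, carbonic anhydrases and the vacuolar proton pump that acidifies lysosomes.

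Total counts of the 12 libraries were 34912711 to 37785975. Several libraries stood apart. Genes high in 1 library alone among all 21, many of them of another tissue, numbered 24 in 7.4/aFGF replicate 3 (cartilage, with Col2a1 at 7277 counts against at most 9 in the other 11 libraries), 28 in 8.4/aFGF replicate 2 (liver, with Fga at 8.94 CPM (counts scaled to the size of the library) against at most 0.913) and 93 in 8.4/bFGF replicate 2 (ovary, with Hsd3b1 at 15387 counts against at most 9). T and NK cell genes were highest in 7.4/aFGF replicate 1, with a summed level of 875 CPM against 227 to 427 CPM in the other 11 libraries. Skeletal muscle genes were lowest in 7.4/bFGF replicate 3, with 444 CPM against 2717 to 21075 CPM, and the same library had the highest summed neutrophil level (18254 CPM) and the lowest summed basal and spinous keratinocyte level (2949 CPM). Keratinocyte genes were measured in each library, at 2949 to 7870 CPM in sum, as the label of skin implies. Libraries 1 and 2 of 7.4/bFGF were the most alike of all pairs within a group, with a chi-square of their counts per degree of freedom of 17.0 against 79.9 to 260.5 in the other 11 pairs. Each mouse had a wound on both sides of its back, and whether any libraries came from the same mouse is not stated in the labels. RNA was measured in bulk, so fewer cells of a type and less RNA per cell cannot be told apart.

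No gene passed edgeR's test for a pH difference that depended on the growth factor. Of 15502 genes, 0 (0%) were called by the quasi-likelihood test of edgeR. The limits were 0.05 for the adjusted p and 0.58 for the log2 fold change, and the smallest adjusted p was 0.993. DESeq2 with default settings was run without edgeR's filter on low counts. It tested 18372 genes and called 4 (Pdpn, Wfdc17, Hmox1 and Gbp2b). Before adjustment, 734 genes (4.73%) had a p under 0.05, 281 with a positive interaction (a higher pH 8.4 to pH 7.4 ratio with aFGF) and 453 with a negative one, where 775.1 are expected if no gene differs. The median interaction was -8.9e-05 on the log2 scale, and 50% of genes were positive. The pH difference within each factor likewise gave 0 edgeR calls (0% of genes), with 739 genes (4.77%) at an unadjusted p under 0.05 with aFGF and 750 (4.84%) with bFGF. Of 18372 genes, DESeq2 with default settings called 28 with aFGF, all lower at pH 8.4, and 5 with bFGF, all higher. How many of these were high in 1 library was not counted. With aFGF, the edgeR count at an unadjusted p under 0.05 was 403 without 7.4/aFGF replicate 1 and 1211 without 7.4/aFGF replicate 2. With bFGF it was 508 without 8.4/bFGF replicate 3 and 1136 without 8.4/bFGF replicate 1.

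The pH differences with aFGF and with bFGF, which share no library, were nearly unrelated across genes. Their signs were opposite for 7697 of 15502 genes (49.7%), and Pearson's r across genes was 0.0429 and Spearman's rho 0.00963, as a description only, since genes are not independent replicates. All 3 libraries of pH 8.4 lay on one side of all 3 of pH 7.4 for 1335 genes (8.61%) with aFGF and for 1821 genes (11.7%) with bFGF. They did so with both factors in the same direction for 67 genes (0.432%) and in opposite directions for 72 (0.464%), 37 of these (0.239%) higher at pH 8.4 with aFGF and lower with bFGF and 35 (0.226%) the reverse. Of the 24 genes with the smallest unadjusted interaction p, 12 in each direction, 23 had pH differences of opposite sign, the exception being Actg2. Choosing by that p largely fixes this count, and 671 of the 734 genes with a p under 0.05 (91.4%) had opposite signs too. The median standard error of the interaction was 0.292 on the log2 scale, and the 95% interval lay within 1 log2 unit of 0 for 8617 genes (55.6%). For the other genes the interval reached past a 2-fold interaction in at least 1 direction.

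**Figure D1:**
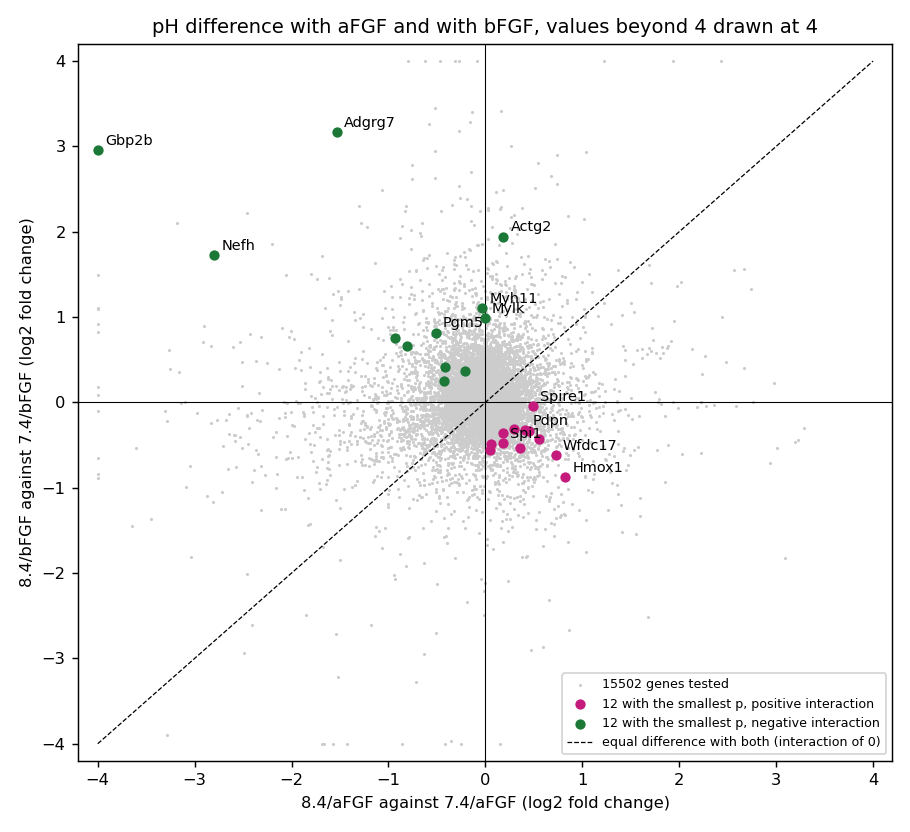
Each point is a gene, with the log2 fold change of 8.4/aFGF against 7.4/aFGF on the x axis and of 8.4/bFGF against 7.4/bFGF on the y axis, fitted by edgeR for 15502 genes (grey), with the 12 genes of smallest unadjusted interaction p in each direction in colour. The cloud is round about 0, with Pearson's r of 0.0429, and the coloured genes lie away from the dashed line because they were chosen by the p of the interaction.

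Among the 12 genes with the smallest p and a positive interaction were several of phagocytes and of iron and heme handling. The 12 genes of each direction were chosen by this p, so the choice itself fixes that their intervals leave out 0. Whether genes of these kinds were more frequent than among all genes was not tested. From here on, errors of log2 fold changes are standard errors, brackets after an interaction hold its 95% interval, a p under 0.05 is unadjusted and from edgeR's quasi-likelihood test, and the adjusted p of every gene tested was 0.993 or more. Pdpn, which encodes podoplanin, a membrane glycoprotein of lymphatic endothelium that activated fibroblasts and macrophages also carry, measured 247, 268 and 229.6 CPM in 7.4/aFGF, 342, 323 and 322 in 8.4/aFGF, 201, 244 and 239 in 7.4/bFGF and 188, 181 and 165 in 8.4/bFGF. The 3 libraries of 8.4/aFGF were above every other library and the 3 of 8.4/bFGF below every other, with control at 122 to 509 CPM. The log2 fold change of pH 8.4 against pH 7.4 was 0.41 ± 0.10 with aFGF and -0.33 ± 0.10 with bFGF, and the interaction was 0.74 ± 0.14 (0.43 to 1.05).

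Hmox1, which encodes the heme-degrading enzyme heme oxygenase-1, measured 1438, 1142 and 889 CPM in 7.4/aFGF, 2486, 2089 and 1555 in 8.4/aFGF, 1428, 878 and 782 in 7.4/bFGF and 611, 524 and 519.9 in 8.4/bFGF. The 8.4/aFGF libraries were all above the 7.4/aFGF libraries, the 8.4/bFGF libraries were all below the 7.4/bFGF libraries, and control spanned 504 to 837 CPM. The interaction was 1.70 ± 0.36 on the log2 scale (0.89 to 2.51). It ranged from 1.38 to 1.88 when each library was left out in turn, and was 1.48 without the 3 libraries that carried genes of another tissue. Ftl1, the ferritin light chain that stores iron, measured 3040.4, 3090.0 and 3190.0 CPM in 7.4/aFGF, 4569.9, 3833 and 4291 in 8.4/aFGF, 4022, 3993 and 3259 in 7.4/bFGF and 2934, 2584 and 3265 in 8.4/bFGF. Its 8.4/aFGF libraries were separated from 7.4/aFGF, while 8.4/bFGF replicate 3 overlapped 7.4/bFGF, and the interaction was 0.78 ± 0.19 (0.36 to 1.20).

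Wfdc17, a secreted protein of activated macrophages, measured 311, 448 and 445 CPM in 7.4/aFGF, 670.5, 576 and 747 in 8.4/aFGF, 518, 421 and 713 in 7.4/bFGF and 381, 345 and 324 in 8.4/bFGF. The pH 8.4 libraries were separated from the pH 7.4 libraries with both factors and in opposite directions, and the interaction was 1.35 ± 0.28 (0.72 to 1.97), or 1.14 without 7.4/bFGF replicate 3, the library with the highest summed neutrophil level. Spi1, the myeloid transcription factor PU.1, measured 275, 206 and 221 CPM in 7.4/aFGF, 259, 273 and 261 in 8.4/aFGF, 221, 216 and 219 in 7.4/bFGF and 164, 148 and 149 in 8.4/bFGF. With bFGF the groups did not overlap, with aFGF they did, and the interaction was 0.66 ± 0.15 (0.33 to 0.99). Ncf1, a cytosolic subunit of the phagocyte NADPH oxidase, measured 235, 242 and 259 CPM in 7.4/aFGF, 285, 249.6 and 297 in 8.4/aFGF, 215, 217 and 219 in 7.4/bFGF and 175, 165 and 158 in 8.4/bFGF. The 8.4/bFGF libraries were the 3 lowest of all 12, and the interaction was 0.54 ± 0.13 (0.26 to 0.81).

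**Figure D2:**
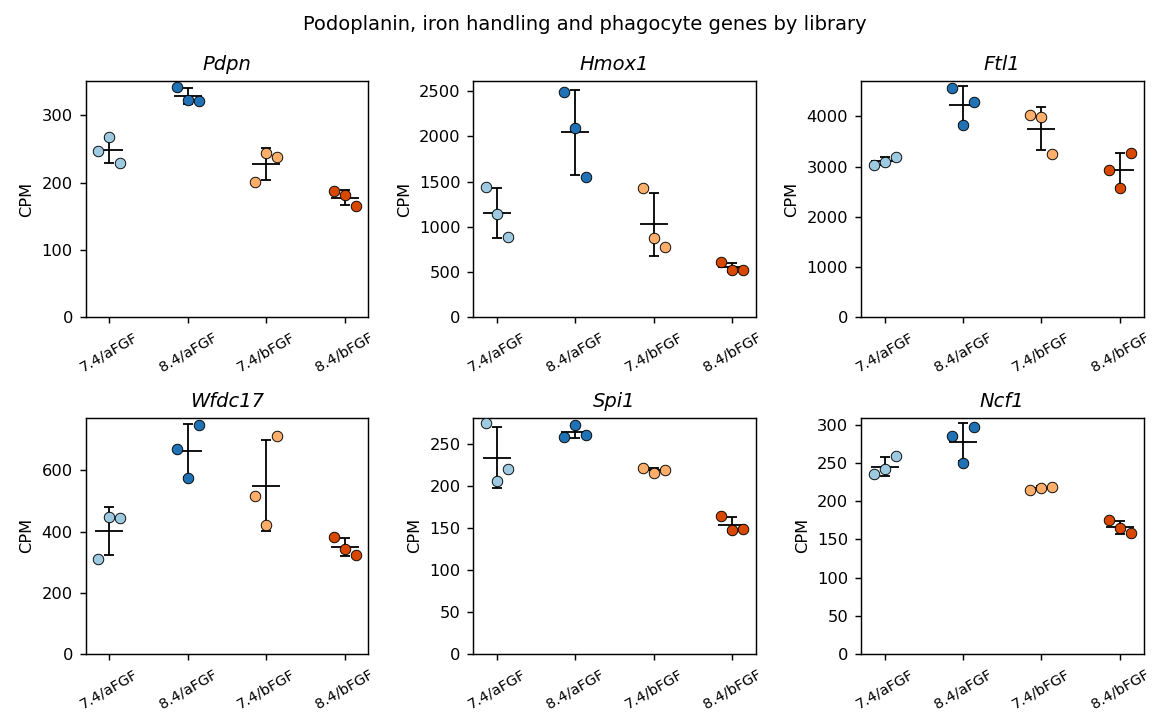
TMM-normalized CPM (linear axis from 0) of Pdpn, Hmox1, Ftl1, Wfdc17, Spi1 and Ncf1 in each of the 3 libraries of 4 groups, with bars at the mean and 1 SD. In each panel the mean of 8.4/aFGF lies above that of 7.4/aFGF and the mean of 8.4/bFGF below that of 7.4/bFGF, and for Pdpn the 8.4/aFGF libraries are 322 to 342 CPM and the 8.4/bFGF libraries 165 to 188 CPM.

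The other 6 genes of this set had these values. Pla2g15, a lysosomal phospholipase, had an interaction of 0.60 ± 0.14 (0.30 to 0.90), from 0.29 ± 0.10 with aFGF and -0.31 ± 0.10 with bFGF. Gla, the lysosomal alpha-galactosidase A, had an interaction of 0.61 ± 0.16 (0.25 to 0.97), with 0.05 ± 0.11 with aFGF and -0.56 ± 0.12 with bFGF, so that its pH difference lay with bFGF. Serpina3n, an acute phase protease inhibitor, had 0.98 ± 0.25 (0.44 to 1.53), and 0.75 without 7.4/bFGF replicate 3. Ninj1, a membrane protein needed for plasma membrane rupture, had 0.89 ± 0.23 (0.38 to 1.40). Spire1, an actin nucleator, had 0.53 ± 0.13 (0.24 to 0.83), and its difference lay with aFGF, at 0.49 ± 0.10 against -0.05 ± 0.09 with bFGF. St6galnac4, a sialyltransferase, had 0.55 ± 0.14 (0.23 to 0.87), from 0.06 ± 0.10 with aFGF and -0.49 ± 0.10 with bFGF.

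The lists of macrophage and proton pump genes had mostly positive interactions. To set beside these and all later lists, 50% of all genes had a positive and 50% a negative interaction. A p under 0.05 was reached by 1.81% of all genes with a positive and by 2.92% with a negative interaction. Of 33 macrophage and monocyte genes tested, 27 had a positive interaction (50% of all genes did) and 2 a p under 0.05 (1.81% of all genes in this direction), with a median of 0.39 that stayed at 0.29 to 0.57 when each library was left out. Their median pH difference was 0.17 with aFGF and -0.31 with bFGF. Itgam, the CD11b integrin chain of myeloid cells, had 0.69 ± 0.27 (0.10 to 1.28), Ccl24, an eosinophil-attracting chemokine of alternatively activated macrophages, 1.30 ± 0.58 (0.02 to 2.57), and Trem2, a lipid-sensing receptor of macrophages, 0.62 ± 0.30 (-0.04 to 1.27). Of 22 vacuolar proton pump genes, 17 were positive and 4 had a p under 0.05, with a median of 0.20 (0.15 to 0.25 with each library left out). The cytosolic subunit gene Atp6v1b2 measured 232, 206 and 217 CPM in 7.4/aFGF, 256, 216 and 249.7 in 8.4/aFGF, 211, 209 and 198 in 7.4/bFGF and 176, 176 and 166 in 8.4/bFGF. The bFGF groups did not overlap and the aFGF groups did, with an interaction of 0.37 ± 0.13 (0.09 to 0.65). Atp6v0b, of the membrane sector, had 0.33 ± 0.13 (0.04 to 0.62) and the accessory subunit gene Atp6ap1 0.30 ± 0.12 (0.03 to 0.57). The remaining gene with a p under 0.05, named after its values were seen, was the membrane subunit gene Atp6v0a1, at 0.52 ± 0.23 (0.02 to 1.02).

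Neutrophil genes had a higher median but a less stable one. Of 25 tested, 17 were positive (50% of all genes were) and 4 had a p under 0.05 (1.81% of all genes in this direction). The median was 0.66, and -0.08 without 7.4/bFGF replicate 3. Il1r2, a decoy receptor for interleukin-1, measured 309, 300.1 and 296 CPM in 7.4/aFGF, 456, 249 and 371 in 8.4/aFGF, 204, 195 and 217 in 7.4/bFGF and 140.2, 137 and 111 in 8.4/bFGF. All 8.4/bFGF libraries lay below all 7.4/bFGF libraries, the aFGF libraries overlapped, and the interaction was 0.89 ± 0.25 (0.33 to 1.45). Cxcr2, the chemokine receptor that draws neutrophils into tissue, had 1.14 ± 0.43 (0.18 to 2.09), and Clec4d, a C-type lectin receptor of myeloid cells, 1.09 ± 0.39 (0.23 to 1.96), or 0.72 without 7.4/bFGF replicate 3. Csf3r, the receptor for granulocyte colony-stimulating factor, named after its values were seen, had 0.85 ± 0.33 (0.12 to 1.58). Control libraries spanned 14.4 to 402 CPM for Cxcr2, a wider range than the 12 hydrogel libraries.

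Among the 12 genes with the smallest p and a negative interaction were 4 of smooth muscle contraction and attachment, whose levels stood apart in 8.4/bFGF. Mylk, the myosin light chain kinase that triggers smooth muscle contraction, measured 35.2, 40.97 and 39.03 CPM in 7.4/aFGF, 36.8, 42.2 and 35.5 in 8.4/aFGF, 41.3, 31.99 and 52.6 in 7.4/bFGF and 78.4, 87.4 and 78.8 in 8.4/bFGF. The 8.4/bFGF libraries were above the other 9 and the other 3 groups overlapped, with control at 35.6 to 56.6 CPM. The log2 fold change was -0.01 ± 0.15 with aFGF and 0.99 ± 0.15 with bFGF, and the interaction was -0.99 ± 0.22 (-1.47 to -0.52), or -1.01 without the 3 libraries that carried genes of another tissue, one of which was 8.4/bFGF replicate 2.

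Myh11, the smooth muscle myosin heavy chain, measured 37.9, 35.3 and 28.8 CPM in 7.4/aFGF, 35.1, 36.1 and 28.02 in 8.4/aFGF, 33.1, 33.3 and 39.3 in 7.4/bFGF and 87.9, 82.04 and 53.02 in 8.4/bFGF. Again the 8.4/bFGF libraries were the 3 highest, with an interaction of -1.14 ± 0.26 (-1.71 to -0.57) and -1.24 without those 3 libraries. Actg2, the gamma actin of smooth muscle, measured 6.99, 6.52 and 6.52 CPM in 7.4/aFGF, 6.84, 9.35 and 6.50 in 8.4/aFGF, 4.46, 3.96 and 6.75 in 7.4/bFGF and 30.6, 14.04 and 12.9 in 8.4/bFGF. The 8.4/bFGF libraries were again the 3 highest and replicate 1 of that group was above the other 2, and the interaction was -1.76 ± 0.46 (-2.77 to -0.75), or -1.25 without 8.4/bFGF replicate 1. Pgm5, a phosphoglucomutase relative found at muscle adhesion sites, measured 9.92, 10.9 and 14.5 CPM in 7.4/aFGF, 7.90, 9.99 and 6.82 in 8.4/aFGF, 11.4, 13.8 and 11.1 in 7.4/bFGF and 25.8, 20.9 and 16.2 in 8.4/bFGF. The bFGF groups did not overlap, 8.4/aFGF replicate 2 lay within the 7.4/aFGF range, and the interaction was -1.33 ± 0.31 (-2.02 to -0.64).

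The contractile list as a whole had a smaller median than these genes. Of 20 myofibroblast and smooth muscle genes tested, 14 were negative (50% of all genes were) and 4 had a p under 0.05 (2.92% of all genes in this direction), with a median of -0.24 and a range of -0.40 to -0.10 with each library left out. These 4 were Mylk, Myh11, Actg2 and, named after its values were seen, the calponin gene Cnn1 of smooth muscle, with an interaction of -1.92 ± 0.68 (-3.42 to -0.43). Acta2, the alpha smooth muscle actin by which the study stained myofibroblasts, measured 156, 189.8 and 187 CPM in 7.4/aFGF, 236, 213 and 181 in 8.4/aFGF, 222, 195 and 192 in 7.4/bFGF and 260.2, 255 and 312 in 8.4/bFGF. The bFGF groups were separated and the aFGF groups overlapped, with fold changes of 0.24 ± 0.14 with aFGF and 0.47 ± 0.14 with bFGF and an interaction of -0.23 ± 0.19 (-0.65 to 0.20). Itga8, the integrin chain of contractile mesenchymal cells, measured 3.31, 2.47 and 2.42 CPM in 7.4/aFGF, 1.90, 1.52 and 1.32 in 8.4/aFGF, 2.37, 1.51 and 2.62 in 7.4/bFGF and 2.68, 2.70 and 4.30 in 8.4/bFGF, separated with both factors in opposite directions, with an interaction of -1.36 ± 0.42 (-2.29 to -0.44). The summed level of endothelial genes, whose vessels carry smooth muscle, spanned 1769 to 2777 CPM in 8.4/bFGF and 1373 to 2776 CPM in 7.4/bFGF, and its part in these values was not tested.

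**Figure D3:**
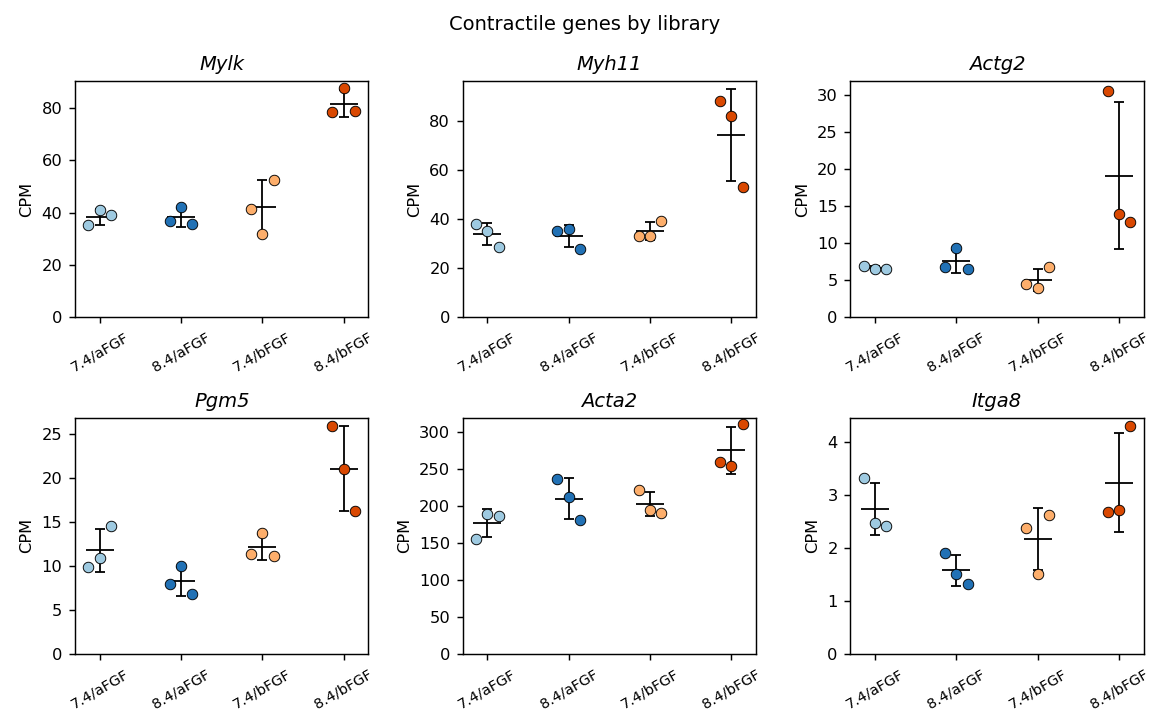
TMM-normalized CPM (linear axis from 0) of Mylk, Myh11, Actg2, Pgm5, Acta2 and Itga8 in each library of 4 groups, with bars at the mean and 1 SD. For Mylk the 8.4/bFGF libraries sit at 78.4 to 87.4 CPM and the other 9 libraries at 32.0 to 52.6 CPM.

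The other negative genes of this set included receptors and adhesion proteins. Erbb3, a neuregulin receptor of epithelial and glial cells, measured 33.8, 29.8 and 31.5 CPM in 7.4/aFGF, 25.01, 21.5 and 23.9 in 8.4/aFGF, 16.7, 20.3 and 22.1 in 7.4/bFGF and 21.7, 24.5 and 22.6 in 8.4/bFGF. The 8.4/aFGF libraries lay below the 7.4/aFGF libraries and, with bFGF, 8.4/bFGF replicate 1 overlapped the pH 7.4 range, with an interaction of -0.68 ± 0.16 (-1.04 to -0.33). Fat1, an atypical cadherin, had -0.84 ± 0.20 (-1.28 to -0.40), from -0.42 ± 0.14 with aFGF and 0.42 ± 0.14 with bFGF. Ablim1, an actin-binding LIM protein, had -0.58 ± 0.15 (-0.90 to -0.25). Aff3, a nuclear regulator of transcription, had -1.46 ± 0.36 (-2.27 to -0.66). Another 3 genes had low counts. Nefh, a heavy neurofilament chain, reached 50 counts in 7.4/aFGF replicate 1 and 0 to 15 in the other 11 libraries. Adgrg7, an orphan adhesion receptor, reached 75 counts in 8.4/bFGF replicate 2 and 1 to 14 elsewhere. Gbp2b, an interferon-induced GTPase, had 834 counts in 7.4/aFGF replicate 1 and 98 in 8.4/bFGF replicate 3, and 0 to 62 elsewhere. The interaction of Nefh was -4.53 ± 1.04, and -3.46 without 7.4/aFGF replicate 1. That of Adgrg7 was -4.70 ± 1.04, and -3.25 without 8.4/bFGF replicate 2, and that of Gbp2b -9.34 ± 2.39, and -6.23 without 7.4/aFGF replicate 1.

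Of the 10 genes with the largest interaction among those of opposite and separated pH differences and a mean of at least 1 CPM, 2 were positive (Hmox1 and Wfdc17) and 8 negative. Besides Aff3 and Itga8 the negative genes included Ntrk3, the neurotrophin-3 receptor, at -1.72 ± 0.45 (-2.73 to -0.72), Ccdc15, a coiled-coil gene, at -1.38 ± 0.37 (-2.20 to -0.56), Slc35f2, a solute carrier, at -1.55 ± 0.51 (-2.67 to -0.42), Nhs at -1.43 ± 0.48 (-2.49 to -0.37) and Fcho1, a clathrin-mediated endocytosis protein, at -1.26 ± 0.49 (-2.35 to -0.18), which was -0.61 without 7.4/aFGF replicate 1. Ntrk3 measured 1.85, 1.35 and 1.21 CPM in 7.4/aFGF, 1.03, 1.10 and 0.620 in 8.4/aFGF, 0.706, 0.869 and 0.854 in 7.4/bFGF and 1.34, 2.09 and 1.77 in 8.4/bFGF. By the rule that chose them, the 3 libraries of pH 8.4 lay below those of pH 7.4 with aFGF and above them with bFGF.

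Cell cycle and basal keratinocyte genes had negative interactions in nearly all members. Of 38 cell cycle genes 35 were negative (50% of all genes were) and 10 had a p under 0.05 (2.92% of all genes in this direction). The median was -0.58 (-0.83 to -0.31 with each library left out), made of a median of -0.23 with aFGF and 0.35 with bFGF. All 38 had a pH difference above 0 with bFGF, and 33 below 0 with aFGF. Of all genes, 49.2% were below 0 with bFGF and 47.5% with aFGF. Mki67, the proliferation marker, measured 103, 84.9 and 129.5 CPM in 7.4/aFGF, 59.9, 58.1 and 92.2 in 8.4/aFGF, 56.9, 82.4 and 96.7 in 7.4/bFGF and 88.9, 125 and 110.2 in 8.4/bFGF. The aFGF groups and the bFGF groups each overlapped, and the interaction was -1.08 ± 0.35 (-1.84 to -0.32). Cenpf, a kinetochore protein, had -1.09 ± 0.32 (-1.79 to -0.39), and Bub1b, of the spindle checkpoint, -1.11 ± 0.36 (-1.89 to -0.32). Without the 3 libraries with genes of another tissue these were -0.67, -0.67 and -0.56.

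Of 19 basal and spinous keratinocyte genes 18 were negative (50% of all genes were) and 3 had a p under 0.05 (2.92% of all genes in this direction). The median was -0.52 (-0.67 to -0.35). All 19 were above 0 with bFGF (median 0.47) and 10 of 19 below 0 with aFGF (median -0.0043). The shares of all genes below 0 were 49.2% with bFGF and 47.5% with aFGF. Itga6, the integrin chain that anchors basal cells to the basement membrane, measured 137, 147 and 138 CPM in 7.4/aFGF, 125, 139.7 and 132 in 8.4/aFGF, 122, 115 and 119 in 7.4/bFGF and 147, 149 and 141 in 8.4/bFGF. The bFGF groups did not overlap, the aFGF groups did, and the interaction was -0.41 ± 0.11 (-0.66 to -0.16). Cdh1, or E-cadherin, had -0.74 ± 0.22 (-1.24 to -0.25) and Dsg3, a desmosomal cadherin, -0.92 ± 0.29 (-1.57 to -0.27). The low summed keratinocyte level of 7.4/bFGF replicate 3 lies on the pH 7.4 side of this difference. Without that library the list's median stayed within the range given above, -0.67 to -0.35, whose ends came from leaving out 7.4/aFGF replicate 1 and 7.4/aFGF replicate 2.

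Interferon-induced genes were below 0 with both factors rather than crossing. Of 77 tested, 75 had a negative pH difference with aFGF (47.5% of all genes did), with a median of -0.84, and 74 with bFGF (49.2%), with a median of -0.43. The interaction was negative for 58 and had a p under 0.05 for 11, with a median of -0.42. This median was -0.89 without 8.4/aFGF replicate 2 and -0.0028 without 7.4/aFGF replicate 1. In 7.4/aFGF replicate 1 the mean log2 level of these genes was 6.99, against 4.56 to 5.91 in the other 11 libraries. Gbp4 and Gbp5, both guanylate-binding GTPases, had interactions of -3.21 ± 1.13 (-5.70 to -0.71) and -2.46 ± 0.87 (-4.39 to -0.54), and Cxcl9, a chemokine for T cells, -4.39 ± 1.63 (-7.99 to -0.79), or -2.82 without that library. Cxcl9 measured 502, 16.8 and 126 CPM in 7.4/aFGF, 11.3, 13.4 and 7.58 in 8.4/aFGF, 6.55, 8.54 and 43.5 in 7.4/bFGF and 6.46, 7.91 and 45.7 in 8.4/bFGF. It was highest in 7.4/aFGF replicate 1 and next in replicate 3 of that group, and overlapped between the bFGF groups.

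T and NK cell genes followed the same library. Of 23 tested 21 were negative (50% of all genes were) and 7 had a p under 0.05 (2.92% of all genes in this direction). The median was -1.52, and -0.18 without 7.4/aFGF replicate 1. Cd3e, a chain of the T cell receptor complex, measured 11.9, 1.40 and 1.02 CPM in 7.4/aFGF, 0.622, 0.828 and 0.863 in 8.4/aFGF, 0.428, 0.895 and 0.766 in 7.4/bFGF and 0.394, 0.747 and 2.29 in 8.4/bFGF, and its interaction was -3.23 ± 1.25, or -1.32 without that library. The interaction of Cd28, a T cell costimulatory receptor, went from -3.50 ± 1.12 to -1.51. Cd247, the CD3 zeta chain, had -2.02 ± 0.72, or -1.0001 without that library. Their part in the interferon values was not tested.

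**Figure D4:**
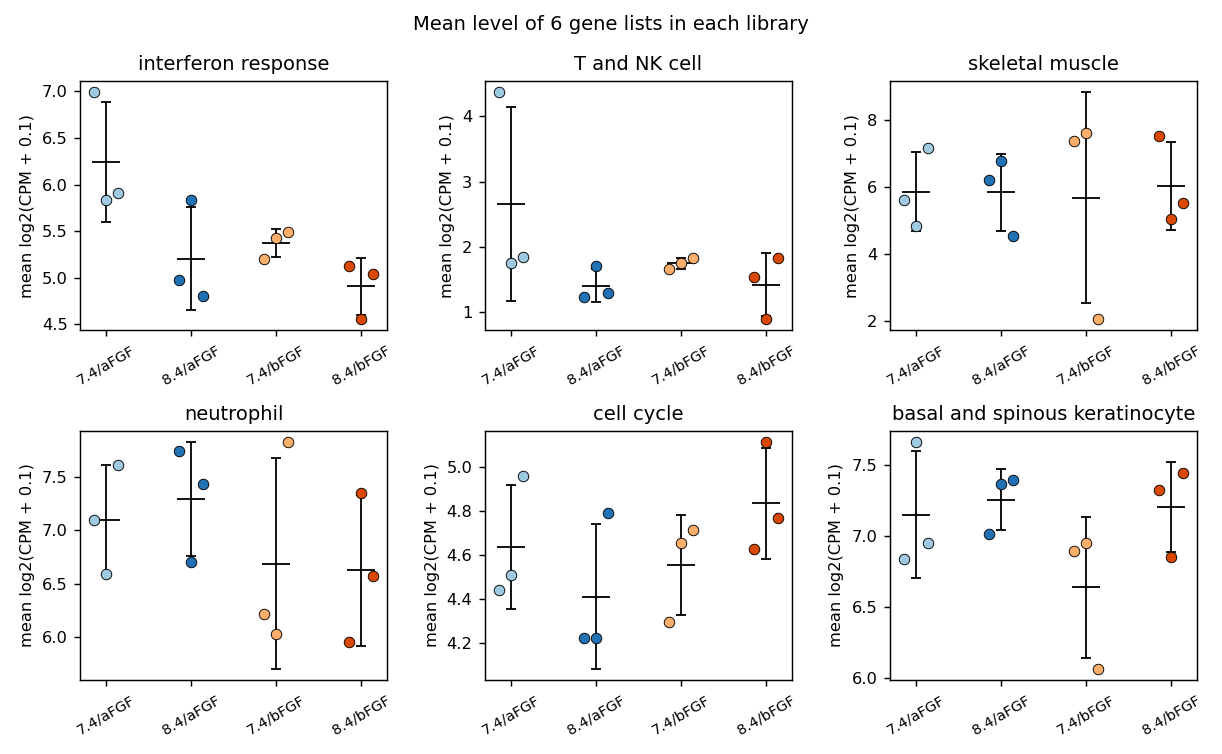
Mean log2(CPM + 0.1) of the genes of 6 lists that the count tables hold, in each of the 12 libraries, with bars at the group mean and 1 SD; the y axes do not start at 0. 7.4/aFGF replicate 1 stands highest for interferon response (6.99) and T and NK cell genes (4.37), and 7.4/bFGF replicate 3 lowest for skeletal muscle (2.07).

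The FGF system itself showed no interaction past the test. Of 13 FGF ligand genes, 9 were positive and 1 had a p under 0.05, with a median of 0.34 (0.04 to 0.74 with each library left out). That gene was Fgf7, the keratinocyte growth factor, which measured 35.9, 60.7 and 42.7 CPM in 7.4/aFGF, 76.4, 73.6 and 60.3 in 8.4/aFGF, 47.8, 53.4 and 88.5 in 7.4/bFGF and 39.6, 50.3 and 59.3 in 8.4/bFGF. The pH groups overlapped with both factors, and the interaction was 0.91 ± 0.36 (0.10 to 1.71), or 0.61 without 7.4/bFGF replicate 3. Fgf1, the transcript of the mouse's own acidic factor, had an interaction of 0.05 ± 0.66 (-1.41 to 1.51), and Fgf2, of the basic factor, 0.34 ± 0.49 (-0.74 to 1.41). The hydrogel factors are proteins and are not counted in these transcripts.

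Of 19 FGF receptors and co-receptors 13 were negative and 0 had a p under 0.05 in edgeR, with a median of -0.13. Fgfr1, the receptor of most mesenchymal cells, measured 214, 238 and 251 CPM in 7.4/aFGF, 264, 239 and 265 in 8.4/aFGF, 285, 295 and 258 in 7.4/bFGF and 250.3, 205 and 283 in 8.4/bFGF. The pH groups overlapped with both factors, with an interaction of 0.28 ± 0.18 (-0.12 to 0.68). The interval was wider for Fgfr2, the keratinocyte receptor of Fgf7, at -1.50 to 1.23, for Fgfr3 at -2.13 to 0.13 and for Fgfr4 at -3.07 to 1.71. Of 21 FGF and ERK feedback targets 14 were positive and 0 had a p under 0.05, with a median of 0.28 (0.05 to 0.43). Ier3, an ERK-responsive survival gene, had 1.15 ± 0.60 (-0.18 to 2.47), or 0.49 without 7.4/bFGF replicate 3. Il17rd, an inhibitor of FGF signalling, had -0.62 ± 0.34 (-1.38 to 0.14), or -0.36 without 7.4/aFGF replicate 3, and Phlda1 1.13 ± 0.73 (-0.50 to 2.75), or 0.32 without 8.4/aFGF replicate 1. Of 24 immediate early genes 21 were positive and 0 had a p under 0.05, with a median of 0.42, which was -0.02 without 8.4/aFGF replicate 1. In that library the matricellular gene Ccn1 was at 399 CPM and in the other 11 at 97.3 to 279.8 CPM.

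Genes that sense or move protons showed no common direction outside the vacuolar pump. Of 12 proton sensors 6 were positive and 6 negative, with a median of -0.07 (-0.36 to 0.31 with each library left out), and of 36 acid-base transporters and carbonic anhydrases 16 were positive and 20 negative, with a median of -0.07, and 0 of either list had a p under 0.05. Car2, a cytosolic carbonic anhydrase, had -1.10 ± 0.51 (-2.24 to 0.03), or -0.65 without 7.4/aFGF replicate 3, and Hvcn1, the voltage-gated proton channel of leukocytes, -0.54 ± 0.35 (-1.31 to 0.23), or -0.30 without 7.4/aFGF replicate 1. Of 33 hypoxia and glycolysis genes 29 were positive (50% of all genes were), with a median of 0.41 (0.10 to 0.73), made of 0.06 with aFGF and -0.35 with bFGF. A p under 0.05 was reached by 1 of them (1.81% of all genes in this direction). That gene was Adm, the vasodilator adrenomedullin, which measured 39.6, 54.03 and 28.5 CPM in 7.4/aFGF, 82.1, 45.8 and 40.9 in 8.4/aFGF, 68.1, 54.8 and 64.3 in 7.4/bFGF and 43.7, 23.95 and 32.6 in 8.4/bFGF. The bFGF groups did not overlap, and the interaction was 1.34 ± 0.43 (0.38 to 2.30). Ldha, which makes lactate, had 0.53 ± 0.31 (-0.16 to 1.23). Of 42 mitochondrial respiratory chain genes 40 were positive (50% of all genes were), with a small median of 0.13, and 0 had a p under 0.05.

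The transcripts of the study's other stained proteins and the genes it named gave wide intervals. The study named its genes from aFGF wounds at pH 6.4 and pH 7.4, and its stains were of protein. The values here are of RNA in another contrast and do not repeat its comparisons. Pecam1, the endothelial CD31, had an interaction of -0.18 ± 0.35 (-0.97 to 0.60), Mrc1, the mannose receptor CD206 of alternatively activated macrophages, 0.67 ± 0.61 (-0.67 to 2.02), or 0.39 without 7.4/aFGF replicate 3, and Ccr7, used as a marker of inflammatory macrophages, 0.28 ± 0.47 (-0.75 to 1.32). Oas3, an interferon-induced sensor of double-stranded RNA, measured 142, 84.4 and 93.01 CPM in 7.4/aFGF, 65.1, 77.5 and 62.1 in 8.4/aFGF, 44.5, 60.5 and 67.9 in 7.4/bFGF and 36.5, 27.4 and 22.8 in 8.4/bFGF, separated in the same direction with both factors, with fold changes of -0.64 ± 0.23 with aFGF and -0.97 ± 0.23 with bFGF and an interaction of 0.33 ± 0.32 (-0.38 to 1.05). Tnfsf14, the cytokine LIGHT, had 0.96 ± 0.46 (-0.05 to 1.97), from -0.12 ± 0.32 with aFGF and -1.07 ± 0.33 with bFGF, and 0.58 without 8.4/aFGF replicate 3. Rnf213, a large interferon-induced ubiquitin ligase, had -0.89 ± 0.45 (-1.88 to 0.11), or -0.50 without 7.4/aFGF replicate 1, Il15, a cytokine for NK cells, 0.48 ± 0.29 (-0.16 to 1.12), or 0.29 without 8.4/aFGF replicate 3, and the endothelial early response gene Apold1 1.10 ± 0.97 (-1.03 to 3.24), or -0.040 without 7.4/bFGF replicate 3. The predicted interferon-inducible GTPase genes F830016B08Rik and Gm12185 had -1.82 ± 0.68 (-3.33 to -0.31) and -1.42 ± 0.86 (-3.33 to 0.49), the latter -0.60 without 7.4/aFGF replicate 1. Epx, the eosinophil peroxidase, was not tested, with 201 counts in 7.4/aFGF replicate 3 and 0 or 1 in the other 11 libraries.

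Ribosomal, matrix, endothelial and chaperone genes had small medians, while the medians of genes of other tissues were set by 1 library each. Of 49 ribosomal protein genes 25 were positive and 24 negative, with a median of 0.0010. Fibroblast collagen and matrix genes had a median of -0.15 (0.11 without 8.4/bFGF replicate 3), with 20 of 30 negative, and Col6a3, a microfibrillar collagen chain, at -0.53 ± 0.23 (-1.04 to -0.02), or -0.34 without 8.4/bFGF replicate 3. Endothelial genes had a median of -0.17 (0.02 without 7.4/bFGF replicate 2), with 19 of 26 negative, and Mmrn1, of lymphatic endothelium and platelets, at -1.34 ± 0.56 (-2.59 to -0.10). Heat shock and unfolded protein response genes had a median of 0.15, with 24 of 30 positive, and Hspa5, the chaperone BiP, at 0.34 ± 0.13 (0.04 to 0.64). The medians of the lists for cartilage (and bone), for liver and for ovary (and oviduct) were -2.66, 1.94 and -1.04, which were -0.02, -0.28 and 0.36 without 7.4/aFGF replicate 3, 8.4/aFGF replicate 2 and 8.4/bFGF replicate 2, respectively. Skeletal muscle genes had a median of 0.46, with a range of -0.02 to 1.51 when each library was left out, and 7 of 9 red blood cell genes were positive, with a median of 0.68 (0.19 to 1.31).

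**Figure D5:**
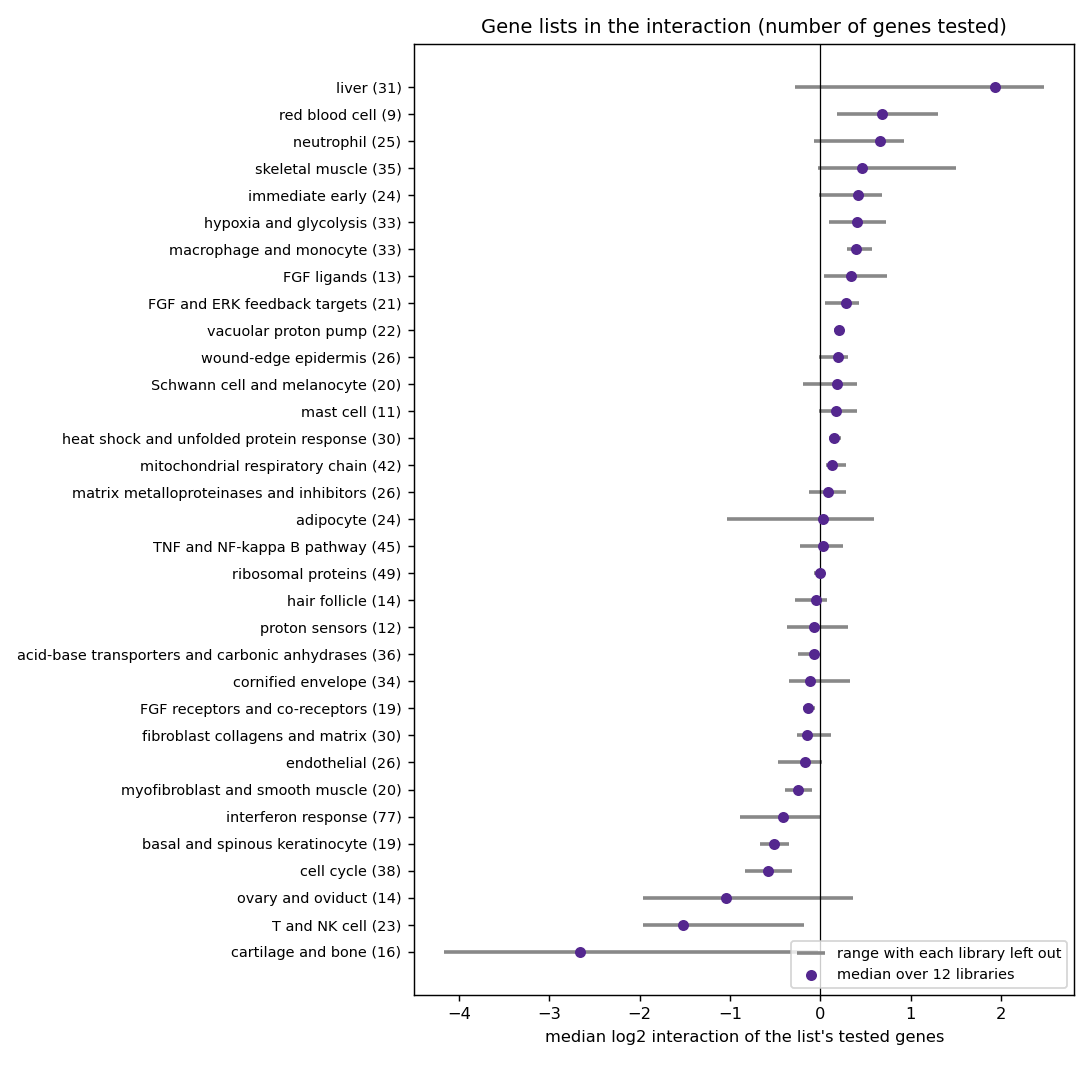
Median log2 interaction of the tested genes of 33 lists (points) with the range of that median when each of the 12 libraries is left out in turn (bars), and the number of genes tested in brackets. Bars for cell cycle (-0.83 to -0.31) and macrophage and monocyte genes (0.29 to 0.57) stay on one side of 0, while the bar for neutrophil genes (-0.08 to 0.93) crosses it.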

How the data were processed

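RNA of mouse skin wounds was sequenced from libraries of a stranded kit, and for each library the deposited files hold raw counts of reads for every gene, with FPKM values beside them. The deposited FPKM values equal the count divided by a fixed gene length and by the library total, checked on 16148 genes. The submitters' processing notes name genome build GRCm39. The aligner and the counting tool are not given in the sources used here, nor is whether counting used strand. A RefSeq table (GRCm38.p6), used to check names, held 18669 of the 18806 symbols.

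The quasi-likelihood test of edgeR 4.0.16, in R 4.3.3, was fitted to the counts of the 12 libraries with a mean per group, after TMM normalization and the default low-count filter. Calls needed an adjusted p (Benjamini-Hochberg) under 0.05 with a log2 change beyond 0.58. CPM values are TMM-normalized, and list levels are the mean of log2(CPM + 0.1). The edgeR fit was checked on simulated counts for the size of known interactions and for false calls. That check required no minimum number of calls, so it cannot tell how many true interactions would be missed. Alternatives used RLE normalization, other filters, robust dispersion, all 21 libraries, a replicate block, DESeq2 1.42.0, limma 3.58.1 on log2(FPKM + 1) and log2(FPKM + 0.1), and fewer libraries. Total counts ranged from 34912711 to 37785975 over the 12 libraries. Libraries of one group differed by more than counting noise, and each was counted as 1 sample.

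The genes named were the 12 with the smallest interaction p in each direction, the 3 with the smallest p of each list at a mean of at least 1 CPM, the 10 largest interactions among genes of opposite and separated pH differences, genes of other tissues, the growth factors and their receptors, and genes the study named or stained. One gene that this rule names is not reported here. Members and lists were chosen with earlier results of these data known.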

Additional observations from a re-analysis of the deposited data

Results flagged for a closer look

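The pH difference depended on the growth factor for 4 genes in DESeq2 with default settings and for 0 in edgeR, where the smallest adjusted p was 0.993 and 734 genes had an unadjusted p under 0.05. Pdpn had a DESeq2 adjusted p of 0.00525 and an interaction of 0.74 on the log2 scale. Wfdc17, at 1.35, and Hmox1, at 1.70, each had a DESeq2 adjusted p of 0.0408. Gbp2b had a DESeq2 adjusted p of 0.0430 and an interaction of -11.17, with 834 of its counts in 7.4/aFGF replicate 1. In Pdpn, Wfdc17 and Hmox1 the 3 libraries of pH 8.4 were above those of pH 7.4 with aFGF and below them with bFGF. For Pdpn the interaction in edgeR was 0.68 to 0.82 with each library left out in turn, and for Hmox1 1.38 to 1.88, while for Wfdc17 the lowest value was 1.14. The reason for the different verdicts of the tools was not tested.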

How the results depend on the processing

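The edgeR and limma alternatives, with each library left out in turn included, gave 0 interaction calls. With each library left out, 511 (without 7.4/bFGF replicate 1) to 1017 genes (without 8.4/bFGF replicate 1) had an unadjusted p under 0.05, and the smallest adjusted p was 0.318. DESeq2 with default settings called 4 genes in the interaction (3 positive, 1 negative), 28 with aFGF, 5 with bFGF and 1 for the mean of both pH differences, and without Cook's cutoff and independent filtering 15, 42, 23 and 12, all against 0 in edgeR. Of these 15, 10 were high in 1 library and 7 were tested by edgeR. The count of 72 genes with opposite and separated pH differences was 69 with RLE normalization, 70 without a filter and 56 with at least 10 counts in every library, settings chosen after seeing the data.

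Same-numbered libraries of different groups had correlations of their deviations of -0.31 to 0.37 (median -0.02), over 0.1 in 6 of 18 pairs. Between 7.4/aFGF and 8.4/aFGF they were 0.21, 0.09 and 0.14, against -0.15 to 2.5e-05 for differently numbered libraries. Between 7.4/bFGF and 8.4/bFGF they were 0.26, -0.31 and -0.02, against -0.34 to 0.34. These values cannot settle whether the numbers paired any samples. The replicate block in edgeR gave 0 interaction calls, with a smallest adjusted p of 0.462. Some interactions turned their sign, and not only those near 0, since Apold1 did so without 7.4/bFGF replicate 3. Fgf1 was -0.071 with the replicate block and -0.012 in limma on log2(FPKM + 1) without a filter, and without the 3 libraries with genes of another tissue Fgfr2 was 0.021, Fgf2 -0.19 and Ccr7 -0.053. With each library left out, Fgf1 ranged from -0.27 to 0.56, Fgfr2 from -0.93 to 0.16, Pecam1 from -0.51 to 0.025 and Apold1 from -0.040 to 1.49. With 3 libraries in each group, a 95% interval within 1 log2 unit of 0 was reached for 55.6% of genes.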
